A study of Mus musculus with 2 samples.

Results

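A set of 10 genes of the actin cytoskeleton was followed in spinal microglia, the resident macrophages of the spinal cord. They were chosen by name, and all 10 of the 10 were found among the 32285 genes counted in both libraries. Actin exists as single molecules (monomers) and as filaments, and a cell changes shape, moves and engulfs material by adding monomers at one end of a filament and removing them at the other. Actb (beta-actin) and Actg1 (gamma-actin) are the actins themselves. Tmsb4x (thymosin beta 4) holds monomers in reserve and Pfn1 (profilin 1) delivers them to growing filaments. Arpc1b and Arpc2 are subunits of the ARP2/3 complex, which starts branches on existing filaments. Cfl1 (cofilin 1) severs old filaments, Coro1a (coronin 1A) binds filaments and ARP2/3 in blood and immune cells, and Lcp1 (L-plastin) ties filaments into bundles. Aif1 encodes IBA1, a calcium-binding protein that bundles actin in ruffling membrane and is the usual stain for microglia.

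scRNA-Seq was done on lumbar spinal cords of male mice, 8 to 10 weeks old, with 1 library for each genotype. Control mice were Eif4ebp1fl/fl by the legend of the study (its methods and labels call them WT), and 4E-BP1–cKO mice were Eif4ebp1fl/fl:TMEM119CreERT2, in which tamoxifen-inducible Cre is driven from the microglial gene Tmem119. By the methods, 4-OHT (4-hydroxytamoxifen) was injected from P4 to P9. 4E-BP1 holds back cap-dependent translation, and deleting it is a way to raise protein synthesis. How many mice entered each library was not given, and without a second library per genotype no difference between genotypes has a replicate check. Cells were freed with collagenase at 37°C, sorted as CD45lo CD11b+ CX3CR1+, and read from the 3′ end of their RNA. Each unique molecular identifier (UMI) counts 1 captured molecule, whatever the length of its gene, so levels are given as counts per 1e6 UMIs (CPM) of the same cells. Intervals are 95% Poisson or, for shares, exact binomial (Clopper-Pearson) intervals, and they cover counting error only.

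Cells had to show over 300 genes and to have less than 5% of UMIs from mitochondrial genes, which kept 1147 control cells of 1216 barcodes and 445 4E-BP1–cKO cells of 474. They held 4803562 and 1734332 UMIs, with medians of 3053 and 2776 UMIs per cell, and no barcode was shared between the libraries. At least 3 of 10 microglial markers were detected in 94.7% and 91.7% of the cells. Summed markers of the other 13 cell types or states checked ranged from 1.87 to 108 CPM in control and from 2.88 to 99.2 CPM in 4E-BP1–cKO cells, against 10464 and 10122 CPM for the microglial markers. Eif4ebp1 was at 19.8 and 29.4 CPM (95 and 51 UMIs). Reads from the 3′ end do not check a deletion of an upstream exon, so this level says nothing of the knockout.

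The promoter stretches of 4 of the genes are shown because these 4 stand for the different patterns described below. Tmsb4x followed ribosomal content most closely and Lcp1 least. The genes whose levels over the clusters were most like those of Aif1 included the complement C1q genes. Actg1 had the highest ratio between the libraries over all kept cells, but its interval overlapped that of Arpc2 and their order was not resolved. With equal weight for cells, bands or clusters the Arpc2 ratio was the higher of the pair. Bases from 130 to 39 before the RefSeq start are given 5′ to 3′ on the gene's strand in GRCm38.p6. The start is that of the RefSeq promoter table, which is the outer end of the gene for Actg1 and lies inside the full gene span for Tmsb4x, Aif1 and Lcp1. Capitals mark the CArG box, the sequence bound by serum response factor (SRF), and GGGCGG, the GC box bound by Sp1-type factors, on either strand.
Actg1, chr11:120348534-120348625, minus strand: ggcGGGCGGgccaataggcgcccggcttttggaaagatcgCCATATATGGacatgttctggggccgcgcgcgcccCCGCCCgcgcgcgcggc
Tmsb4x, chrX:167209257-167209348, minus strand: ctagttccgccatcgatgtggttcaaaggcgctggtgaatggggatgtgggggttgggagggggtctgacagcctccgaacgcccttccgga
Aif1, chr17:35176091-35176182, minus strand: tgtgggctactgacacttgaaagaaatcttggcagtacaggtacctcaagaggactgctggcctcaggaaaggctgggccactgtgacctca
Lcp1, chr14:75130993-75131084, plus strand: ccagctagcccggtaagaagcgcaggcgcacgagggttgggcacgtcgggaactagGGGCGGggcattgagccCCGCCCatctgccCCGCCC
Promoter windows (250 bases before to 50 after the start) were matched for 9 of the 10 genes. Actb had no entry in the promoter table, so the matches say nothing of its promoter and do not set Actg1 apart from it. The CArG box was in 1 of the 9, Actg1, at 90 bases before its start, and in 1.63% of all 32851 windows. GGGCGG was in 8 of the 9, all but Aif1, and in 35.7% of all windows. A gene was counted here if any of its windows had a match. Coro1a and Lcp1 had 2 windows each, so by window GGGCGG was in 9 of 11, with no match in 1 of the Lcp1 windows. The only Tmsb4x match lies upstream of the stretch shown. TATAAA was in 0 of the 9 and in 13.6% of all windows. These matches describe letters in a window and are not evidence of binding.

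Summed over all kept cells, the 10 genes took 1.02% of UMIs in control (49121 UMIs) and 1.06% in 4E-BP1–cKO microglia (18415 UMIs), a ratio of 1.04 (1.02 to 1.06). Tmsb4x and Actb made up 73.5% and 70.7% of that sum. Tmsb4x was the most abundant of the 10, at 4295 CPM in control and 4420 CPM in 4E-BP1–cKO cells, and ranked 5 and 7 among all genes. Actb stood at 3225 and 3092 CPM. Below this pair came Actg1, at 679 and 887 CPM, and Lcp1, at 434 CPM in both libraries. Arpc2 followed at 337 and 424 CPM and Cfl1 at 301 and 331 CPM. Lower levels were found for Aif1 (281 and 285 CPM), Pfn1 (244 and 262 CPM), Arpc1b (227 and 250 CPM) and Coro1a (203 and 234 CPM). Among 4E-BP1–cKO cells the intervals of Lcp1 (404 to 466 CPM) and Arpc2 (394 to 456 CPM) overlapped, as did those of Aif1 (260 to 311 CPM), Pfn1 (238 to 287 CPM) and Arpc1b (227 to 274 CPM). Coro1a (211.9 to 258 CPM) overlapped Arpc1b and Pfn1, and Aif1 overlapped Cfl1 (304 to 359 CPM), as it did in control cells. The order among these neighbours was not resolved.

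Between the genotypes the 10 genes differed little. None of the 10 reached a 1.5-fold difference, a size passed by 4.40% of the 4887 genes with at least 200 UMIs (1.19% higher and 3.21% lower). Their median log2 ratio (4E-BP1–cKO over control) was 0.12, from -0.061 for Actb to 0.38 for Actg1, beside -0.032 over all 4887 genes. 8 of the 10 were above 0, as were 45.1% of all these genes. The counting interval lay above 1 for 4 of the 10 (Actg1, Tmsb4x, Coro1a and Arpc2), against 14.0% of genes, and below 1 for Actb alone, against 19.6% of genes. A counting interval narrows as UMIs rise, and these shares of genes are not matched for UMI count. The comparison set starts at 200 UMIs, whereas Coro1a, the least counted of the 10, had 973 UMIs in control and 406 in 4E-BP1–cKO cells. The sizes were 1.31 for Actg1 (1.23 to 1.39), 1.26 for Arpc2 (1.15 to 1.37), 1.16 for Coro1a (1.03 to 1.30), 1.03 for Tmsb4x (1.002 to 1.057) and 0.959 for Actb (0.929 to 0.989). Aif1, the IBA1 gene, had a ratio of 1.01 (0.912 to 1.12), and Lcp1 one of 0.999 (0.918 to 1.09). The direction of the sum depended on how cells were weighted: its log2 ratio was 0.054 over all cells and -0.14 when the bands of ribosomal content described next were given equal weight. That of Actg1 was 0.16 in the latter case and 0.59, just past 1.5-fold, when every cell was thinned to 872 UMIs.

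For most of the 10 genes, differences between groups of cells of the same library were larger than those between the library totals. Microglia of both libraries ranged from cells in which about 1% of UMIs came from the 83 ribosomal protein genes to cells with more than 15%, and cells were placed in 4 bands by this share. The 10 genes took 0.409% of UMIs in cells with under 3% ribosomal protein UMIs in the control library, 1.19% in those with 3 to under 8%, 1.69% with 8 to under 15%, and 2.56% with 15% and over. The same 4 shares in 4E-BP1–cKO cells were 0.409%, 1.19%, 1.63% and 1.80%. The bands held 659, 344, 114 and 30 control cells and 213, 145, 72 and 15 4E-BP1–cKO cells. Shares of cells in the lowest band were 57.5% (54.5 to 60.3) and 47.9% (43.1 to 52.6), and those in the band from 8 to under 15% were 9.94% (8.27 to 11.8) and 16.2% (12.9 to 19.9). Other measures moved with the bands. In control cells the median depth was 2354 UMIs in the lowest band and 7245 in the third, and the share of Malat1, a nuclear RNA, was 4.66% of UMIs in the lowest band and 1.65% in the highest (4.70% and 2.40% in 4E-BP1–cKO cells). The part of Malat1 and that of depth in the results by band were not tested.

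**Figure D1:**
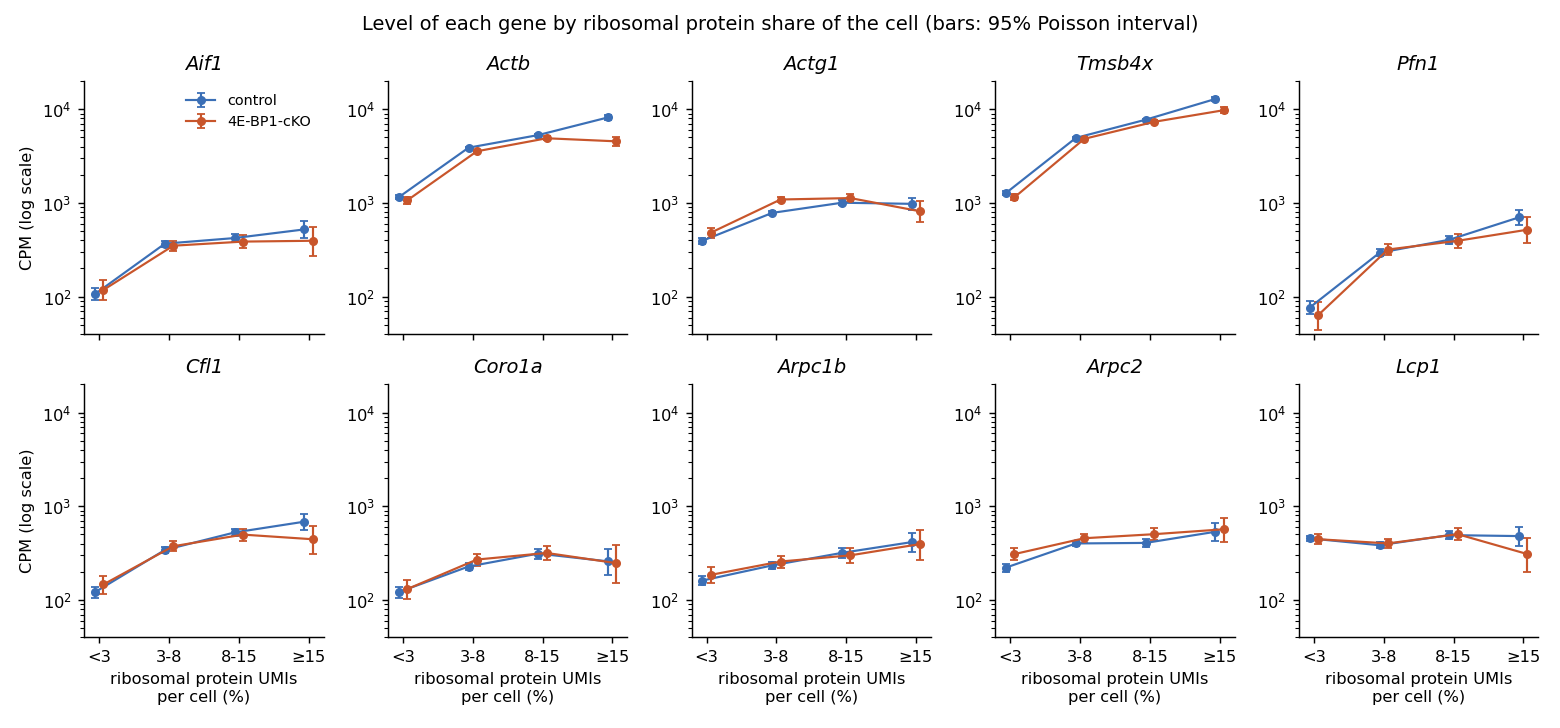
Level of each of the 10 genes (CPM, log axis) in 4 bands of cells set by the share of ribosomal protein UMIs, in the control library (blue) and the 4E-BP1–cKO library (orange), with 95% Poisson intervals. All genes but Lcp1 stand at least 1.5-fold higher in cells with 8% and over than in cells with under 3%. The libraries part most for Actb in the highest band, at 8187 and 4545 CPM.

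Tmsb4x showed one of the steepest courses. Its level in control cells was 1281 CPM in the lowest band and then 4948, 7732 and 12878 CPM, and in 4E-BP1–cKO cells 1149, 4834, 7337 and 9769 CPM. In the lowest band 87.6% of control and 70.0% of 4E-BP1–cKO cells still held a Tmsb4x UMI, so the gene was detected in most cells at the low end too. Among single control cells, the 10th percentile, median and 90th percentile were 0, 906 and 2449 CPM in the lowest band and 4738, 7347 and 12319 CPM in the band from 8 to under 15%. The 90th percentile of the first group thus lay below the 10th percentile of the second.

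Actb followed the same order, at 1153, 3888, 5305 and 8187 CPM in control cells. In 4E-BP1–cKO cells it stood at 1065, 3562, 4903 and 4545 CPM, without a further step in the top band. Pfn1, the monomer carrier, was at 76.7, 294, 405 and 703 CPM in control and at 63.6, 319, 395 and 519 CPM in 4E-BP1–cKO cells. The severing factor Cfl1 had 121, 342, 525 and 685 CPM in control and 147, 374, 498 and 445 CPM in 4E-BP1–cKO cells. Aif1 had its main step between the first and second bands, from 107 to 368 CPM in control cells (then 422 and 523 CPM) and from 118 to 350 CPM in 4E-BP1–cKO cells (then 387 and 395 CPM).

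Levels in all cells with 8% and over were then set against those with under 3%, within each library. 9 of the 10 genes were at least 1.5-fold higher in the control library, where 20.1% of the 4887 genes were, and the same number in the 4E-BP1–cKO library, where 20.7% of genes were. None was 1.5-fold lower, a change found for 36.5% and 39.8% of genes. The median log2 ratio of the 10 was 1.68 and 1.46, beside -0.31 and -0.36 over all genes. Tmsb4x was 6.68-fold (6.38 to 6.99) and 6.75-fold (6.21 to 7.35) higher. Pfn1 was 5.91-fold (4.89 to 7.17) and 6.55-fold (4.57 to 9.63) higher, so the order of Tmsb4x and Pfn1 was not resolved. Actb was 5.0-fold and 4.55-fold higher. Cfl1 (4.54-fold and 3.34-fold) and Aif1 (4.10-fold and 3.29-fold) came next. Gamma-actin differed less than beta-actin: Actg1 was 2.53-fold (2.30 to 2.79) and 2.23-fold (1.92 to 2.59) higher. Coro1a (2.50-fold and 2.34-fold), Arpc1b (2.07-fold and 1.70-fold) and Arpc2 (1.92-fold and 1.67-fold) were near it or below. Lcp1 stood apart at 1.08-fold (0.966 to 1.21) and 1.06-fold (0.877 to 1.27), with both intervals holding 1. Ribosomal protein UMIs take up part of the total in these cells. With ribosomal protein and mitochondrial genes left out of the total, the median log2 ratio of the 10 was 1.85 and 1.65, and still 9 of the 10 were past 1.5-fold in each library. With both libraries together the median was 1.62, with 1.60 after thinning each cell to 872 UMIs and 1.58 in cells of at least 2000 UMIs. Thinning leaves the expected share of a gene in a cell unchanged, and depth still varied among cells of at least 2000 UMIs. The part of depth in these ratios between bands was therefore not tested.

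In 10 equal groups of cells ordered by ribosomal protein share, the sum of the 10 genes went from 0.258% of UMIs in the first to 1.92% in the last control group, and from 0.264% to 1.75% in 4E-BP1–cKO cells. Aif1 had its step in the middle of this order, as Actb, Tmsb4x and Pfn1 did. It was between 54.6 and 115 CPM in the first 5 control groups, at 270 CPM in the sixth, where the median ribosomal share was 2.65%, and between 314 and 474 CPM in the other 4. From the fifth to the sixth control group Actb went from 1121 to 2716 CPM, Tmsb4x from 1398 to 3031 CPM and Pfn1 from 81.4 to 171 CPM.

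**Figure D2:**
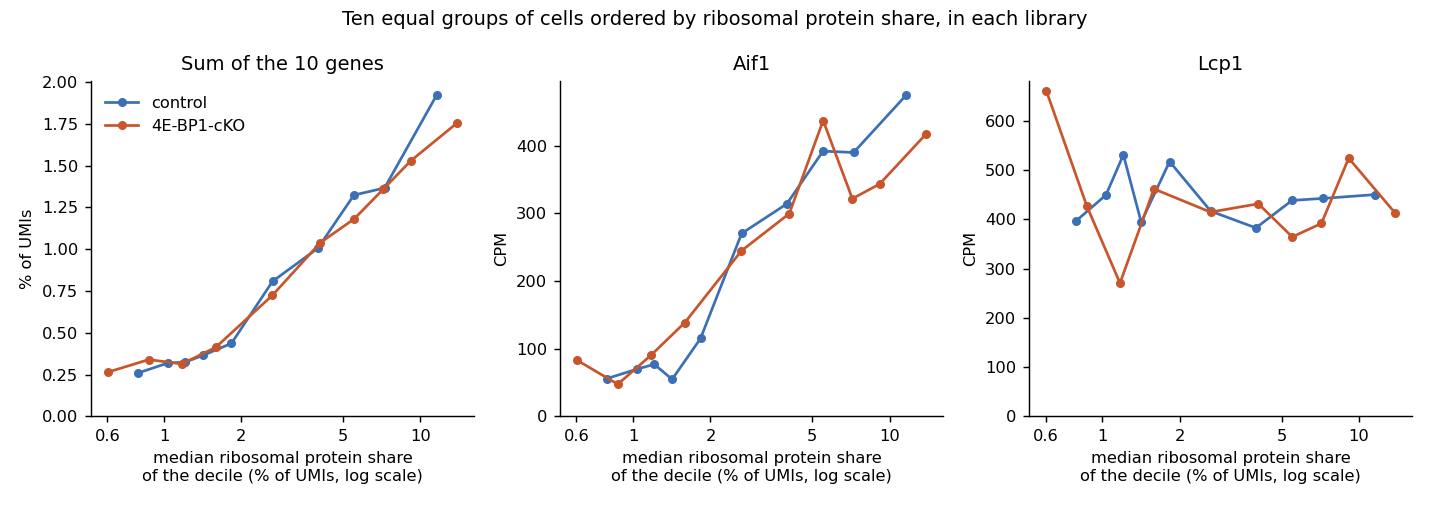
Sum of the 10 genes (% of UMIs), Aif1 and Lcp1 (CPM) in 10 equal groups of cells per library, placed at the median ribosomal protein share of each group (log axis). The sum goes from 0.258% to 1.92% of UMIs in control (blue) and from 0.264% to 1.75% in 4E-BP1–cKO cells (orange), Aif1 steps up near 2 to 3% ribosomal share, and Lcp1 has no such course.

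Whether a gene was higher in ribosome-rich cells also went with the length of the gene. Among 4681 genes with a span in RefSeq GRCm38.p6 (of 4807 that are neither ribosomal protein nor mitochondrial genes), Spearman's rho between span and the log2 ratio of the bands was -0.64 in control and -0.62 in 4E-BP1–cKO cells; these are correlations across genes of the same libraries and not across replicates. Of genes that span under 20 kb, 48.4% and 47.5% were at least 1.5-fold higher in ribosome-rich cells, against 8.85% and 10.0% of those from 20 to under 100 kb and 0.528% and 0.950% of longer ones. 8 of the actin genes span under 20 kb, from 2.81 kb (Actg1) to 13.9 kb (Arpc1b). The remaining ones are Arpc2, at 31.7 kb, and Lcp1, at 99.7 kb. So Lcp1 is both the longest of the 10 and the one with the smallest difference between the bands, and short spans are common among genes that were higher. At log2 ratios of 0.11 and 0.078, Lcp1 still lay above the medians of genes from 20 to under 100 kb, -0.40 and -0.47. The part of gene length, or of unspliced nuclear RNA counted within long genes, was not tested.

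**Figure D3:**
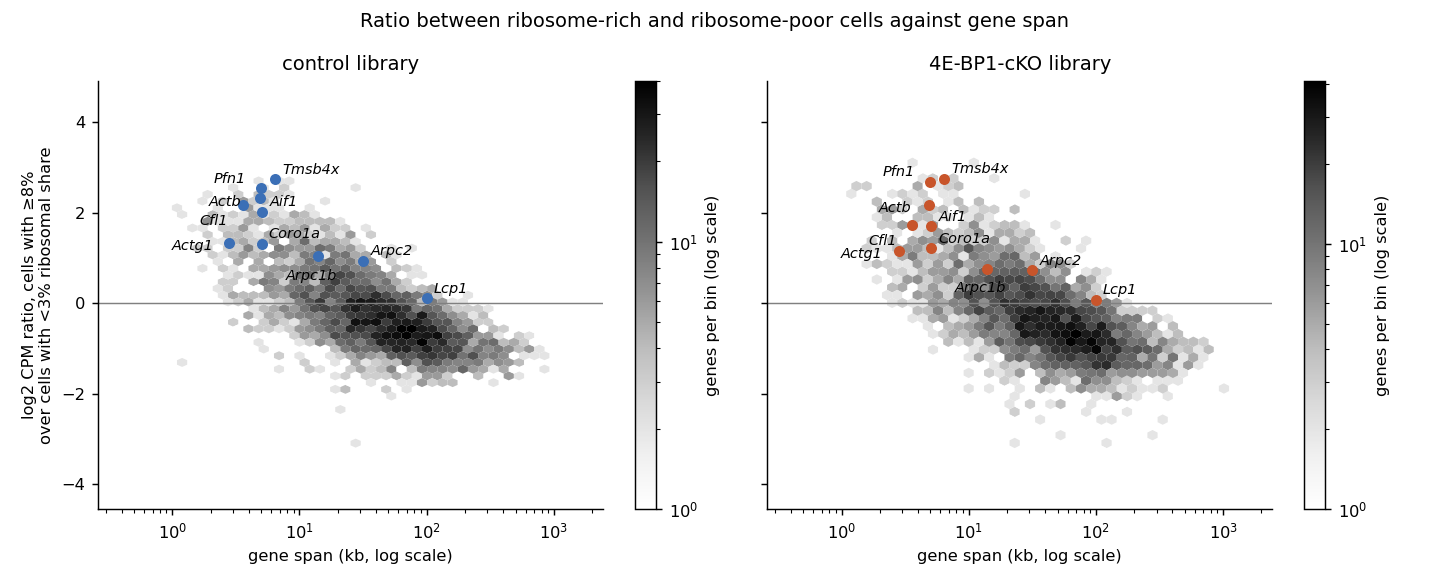
Log2 ratio of CPM between cells with 8% and over and cells with under 3% ribosomal protein UMIs against gene span (kb, log axis), for 4681 genes (grey, darker where more genes fall) and the 10 actin genes (coloured), in each library. Short genes lie higher (rho -0.64 and -0.62), the 10 genes all lie above 0, and Lcp1, at 99.7 kb, lies near 0.

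By cell, the summed share of the 10 genes correlated with ribosomal protein share with a Spearman rho of 0.84 over 1147 control cells and 0.84 over 445 4E-BP1–cKO cells. Both shares come from the same cells and the same total. Within cells under 3% ribosomal protein UMIs, rho was 0.41 and 0.38. For single genes it was 0.82 in both libraries for Tmsb4x, 0.72 and 0.72 for Actb, 0.52 and 0.51 for Aif1, 0.37 and 0.37 for Actg1, and 0.082 and 0.046 for Lcp1. The sum ran against Malat1, with rho -0.53 in both. Between the genes themselves, the median rho over the 45 pairs was 0.26 in control and 0.27 in 4E-BP1–cKO cells. Actb and Tmsb4x made the closest pair, at 0.71 and 0.69. Aif1 followed Tmsb4x at 0.51 in both libraries. Arpc1b and Arpc2, subunits of the same complex, had rho of 0.17 and 0.071. Counts were sparse, with a mean of about 1 UMI per cell for Aif1, Pfn1, Cfl1, Coro1a and Arpc1b, and rho depends on depth: after thinning, the median pair stood at 0.069 and 0.068, and Actb with Tmsb4x at 0.58 and 0.56.

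The genes were also set against immediate early genes (Fos, Jun, Ier2 and others, 18 in all), which respond within minutes to stimulation and to tissue dissociation. Over all cells the rho with their summed share was 0.33 in control and 0.39 in 4E-BP1–cKO cells for Actb, 0.32 and 0.37 for Actg1 and 0.31 and 0.33 for Tmsb4x. After thinning it was 0.27 and 0.35 for Actb, 0.25 and 0.31 for Tmsb4x and 0.24 and 0.22 for Actg1, so beta-actin came first in both. The order differed when cells were split by ribosomal share. In cells under 3%, Actg1 came first, at 0.14 over 659 control and 0.17 over 213 4E-BP1–cKO cells. It was close there to Tmsb4x in control (0.13) and to Arpc1b in 4E-BP1–cKO cells (0.16). In cells with at least 3% ribosomal protein UMIs, a range added after the values were seen, the rho of Actg1 was 0.32 over 488 control cells and 0.31 over 232 4E-BP1–cKO cells. The other 9 ranged from -0.15 to 0.14 in control and from -0.078 to 0.20 in 4E-BP1–cKO cells. Aif1 was at -0.15 and -0.044 on this measure.

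Clustering both libraries together gave 9 clusters, numbered by size from 339 to 43 cells. They are described by number, since their makeup follows in part ribosomal content and depth. These do not set all clusters apart. In control cells, cluster 8 was near clusters 1, 2 and 7 in both, but heat shock genes took 1.97% of its UMIs, against 0.564%, 0.431% and 0.642%. Since the actin genes took part in the clustering, their levels by cluster are a description. The 10 genes took 0.328% of UMIs in the lowest and 2.40% in the highest cluster, a 7.33-fold range. When the members and the wider actin lists were kept out of the clustering, the range was 6.86-fold. Cluster 9, with 26 control and 17 4E-BP1–cKO cells and a median of 18.4% and 19.2% ribosomal protein UMIs, was highest for the sum, at 2.62% and 2.05%. Clusters 1, 2, 7 and 8, whose medians lay between 0.923% and 1.38%, held between 0.297% and 0.480%. Pfn1 ranged 17.5-fold (37.5 to 656 CPM) and Tmsb4x 14.2-fold over the clusters of both libraries. Aif1 ranged 9.31-fold, Actb 8.24-fold, Actg1 4.47-fold, Arpc2 3.33-fold and Lcp1 1.71-fold. The lowest Pfn1 level, in cluster 8, rests on 9 control UMIs and 0 4E-BP1–cKO UMIs. With the actin genes kept out of the clustering, Pfn1 ranged 11.74-fold and Tmsb4x 12.96-fold. The order of Pfn1 and Tmsb4x thus depended on the clustering.

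Aif1 and Actg1 parted between clusters 3 and 6. These are both cells of high depth with ribosomal shares of 6.35% and 4.18% (control medians). Aif1 stood at 366 CPM (329 to 406) in cluster 3 and 429 CPM (385 to 477) in cluster 6 of the control library. Actg1 stood at 911 CPM (852 to 973) in cluster 3 and 418 CPM (374 to 465) in cluster 6. In 4E-BP1–cKO cells Aif1 was at 404 and 370 CPM and Actg1 at 1122 and 543 CPM. The intervals of Aif1 overlapped in both libraries, so its order was not resolved, and those of Actg1 were apart in both. Early genes took 3.83% of UMIs in cluster 3 and 1.61% in cluster 6 of the control library, with 4.97% and 1.68% among 4E-BP1–cKO cells. The pair of clusters was picked after these values were seen. Actg1 was highest in cluster 5, at 1189 and 1299 CPM, whereas Aif1 was highest in cluster 9, at 759 and 445 CPM. In 4E-BP1–cKO cells neither peak was resolved from cluster 3. For Aif1 the intervals were 319 to 604 CPM in cluster 9 and 346 to 470 CPM in cluster 3. For Actg1 they were 1192 to 1412 CPM in cluster 5 and 1023 to 1228 CPM in cluster 3.

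**Figure D4:**
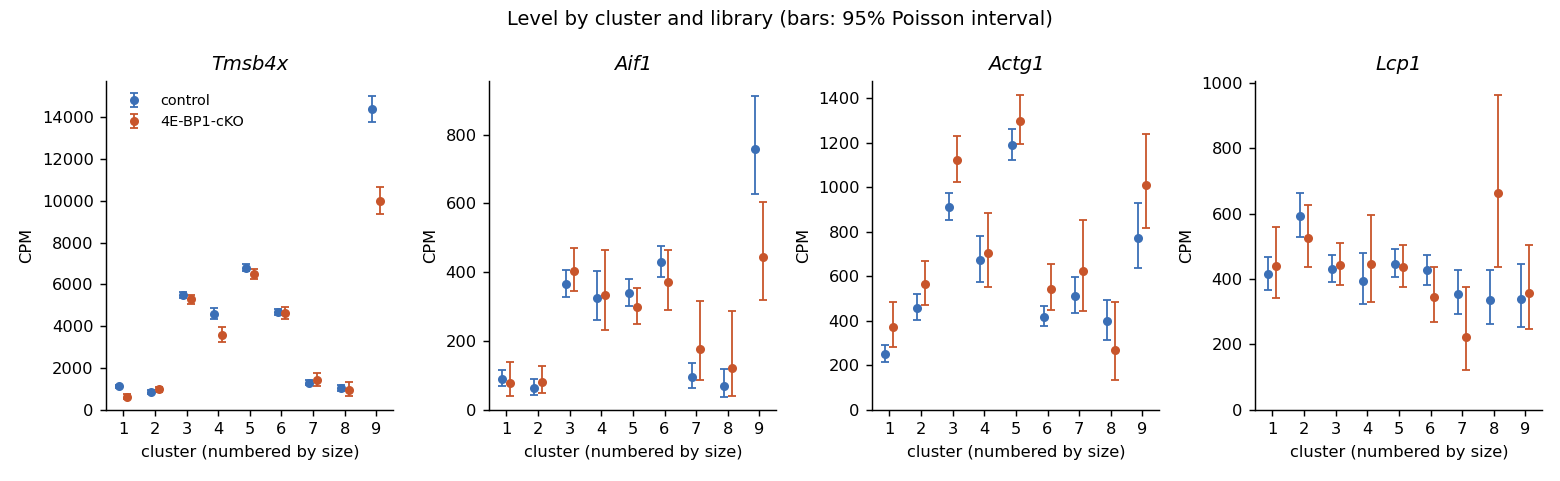
Level (CPM) of Tmsb4x, Aif1, Actg1 and Lcp1 in the 9 clusters of the control (blue) and 4E-BP1–cKO (orange) libraries, with 95% Poisson intervals. Tmsb4x and Aif1 peak in cluster 9, Actg1 peaks in cluster 5 and is low in cluster 6, and Lcp1 varies 1.71-fold over the clusters of both libraries together.

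Over the 18 combinations of cluster and library, the genes whose levels were ordered most like those of Aif1, out of 4887, were C1qa (rho 0.96), Sparc (0.96), Ppib (0.96), C1qc (0.95) and C1qb (0.95). C1qa, C1qb and C1qc encode the chains of complement C1q, Sparc a secreted matrix protein and Ppib a folding enzyme of the endoplasmic reticulum. Aif1 was less like Actb (0.89), Tmsb4x (0.88) or the ribosomal share (0.79), and had -0.24 with Lcp1. The sum of the 10 genes was most like Rpl27a (0.99), Rpl10 (0.99), Cox4i1 (0.98), Rpl31 (0.98) and Eef1a1 (0.98), that is, ribosomal proteins, a respiratory chain subunit and a translation elongation factor. The median over all genes was -0.21 for Aif1 and -0.23 for the sum. The combinations share libraries, depth and ribosomal content, and the clusters were built from these same genes.

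The genotypes were compared again within bands, so that cells of like ribosomal content were set side by side. Cells of the same band were not alike in depth. From 8 to under 15%, the median was 7245 UMIs in control and 4810 in 4E-BP1–cKO cells, and Malat1 took 2.23% and 2.90% of UMIs. The part of depth in these ratios was not tested. The sum of the 10 genes had a 4E-BP1–cKO to control ratio of 1.0 (0.955 to 1.05) in the lowest band, 1.0 (0.979 to 1.03) and 0.961 (0.933 to 0.990) in the next ones, and 0.702 (0.661 to 0.745) in the highest. From the lowest to the highest band, 2, 1, 1 and 0 of the 10 genes had a counting interval above 1, where 9.60%, 10.6%, 6.08% and 4.11% of all genes did. In the same order, 1, 1, 2 and 3 had one below 1, against 9.72%, 13.5%, 8.31% and 3.48% of all genes. These shares of genes are not matched for UMI count either. Arpc2 was at 1.39 (1.16 to 1.66), 1.14 (0.994 to 1.30), 1.24 (1.03 to 1.48) and 1.06 (0.728 to 1.53) and its ratio was above 1 in all 8 clusters that had 20 or more cells from both libraries, though the interval held 1 in all of them but cluster 4 (1.15 to 2.31). Aif1 was at 1.11, 0.951, 0.917 and 0.756, and all 4 of its intervals held 1, as they did in those 8 clusters. In cluster 9, with 26 control and 17 4E-BP1–cKO cells, Aif1 was at 759 CPM (626 to 912) and 445 CPM (319 to 604), with intervals apart.

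**Figure D5:**
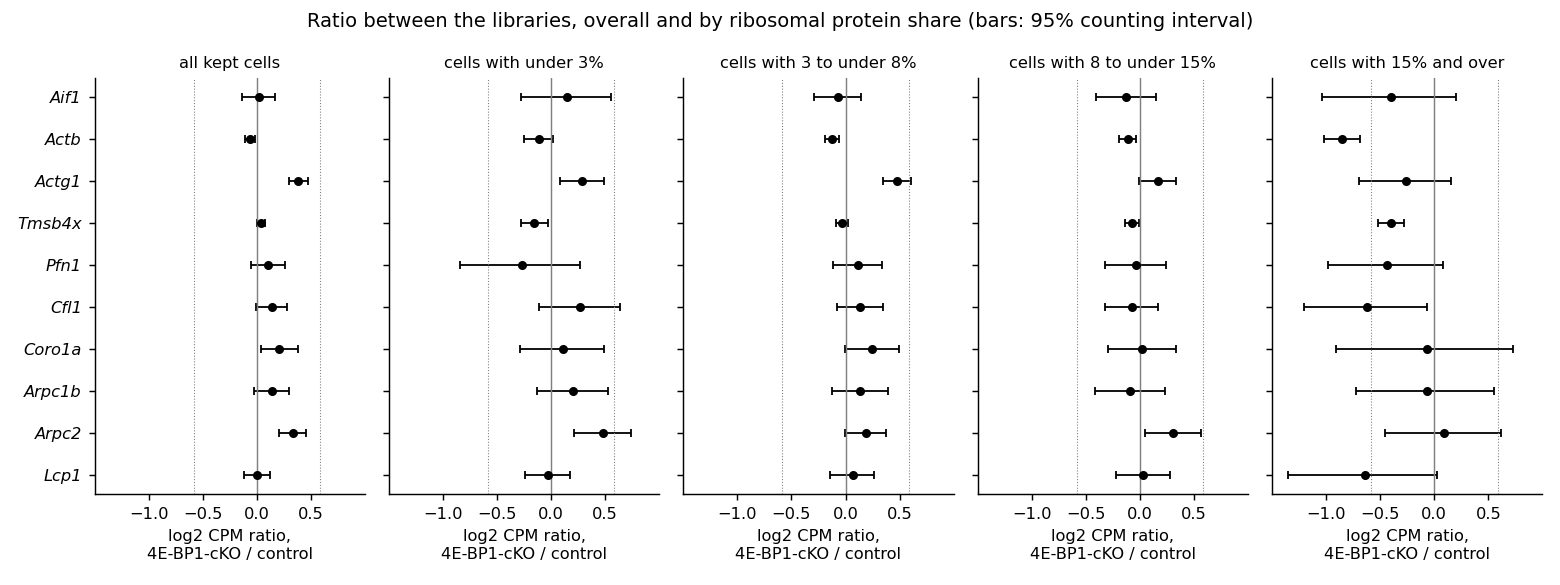
Log2 ratio of CPM, 4E-BP1–cKO over control, of the 10 genes in all kept cells and in the 4 bands of ribosomal protein share, with 95% counting intervals; dotted lines mark 1.5-fold. In all cells every gene lies within 1.5-fold, Actg1 is highest at 0.38, and in the band of 15% and over Actb lies at -0.85.

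The top band rests on 30 control and 15 4E-BP1–cKO cells. There Actb was at 0.555 (0.493 to 0.623), Tmsb4x at 0.759 (0.698 to 0.823) and Cfl1 at 0.649 (0.433 to 0.952). 1 control cell held 311 of the 1363 Actb UMIs of its band, or 22.8%. Without the cell with most UMIs of the gene in each library, the ratio was 0.632 (0.555 to 0.718) for Actb, 0.749 (0.683 to 0.819) for Tmsb4x and 0.663 (0.413 to 1.03) for Cfl1. Lcp1 then came to 0.550 (0.302 to 0.947), from 0.643 (0.393 to 1.02) with all cells. These intervals take UMIs as independent, although UMIs of the same cell are not.

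The balance of the pair of actins also differed between the libraries, a measure chosen after the values were seen. Beta- and gamma-actin are nearly identical proteins from separate genes, and the ends of their transcripts, which these reads come from, differ. Actg1 made up 17.4% (16.9 to 17.9) of the UMIs of both actins in control and 22.3% (21.3 to 23.3) in 4E-BP1–cKO microglia. In the control library the share was 25.5%, 16.8%, 15.9% and 10.7% from the lowest to the highest band. In the 4E-BP1–cKO library it was 31.2%, 23.4%, 18.7% and 15.2%. It was thus higher in 4E-BP1–cKO cells in all 4 bands, with intervals apart in the first 3. It was higher in 8 of the 9 clusters, with intervals apart in 5. The exception was cluster 8, at 31.2% (25.6 to 37.3) and 21.6% (11.3 to 35.3). Bands and clusters are parts of the same 2 libraries, so they are not separate checks of the difference. Because both genes are counted in the same cells, the share is taken without total UMIs or other genes in its denominator. It is summed over cells, so cells with more actin UMIs weigh more in it. A higher share can come from more Actg1 or from less Actb. From the lowest to the highest band, the 4E-BP1–cKO to control ratio of Actg1 was 1.22, 1.39, 1.12 and 0.833. That of Actb was 0.923, 0.916, 0.924 and 0.555. The Actg1 interval held 1 from 8 to under 15% (0.997 to 1.26) and at 15% and over (0.616 to 1.11). A higher Actg1 level was thus not resolved in these bands, and in the highest its ratio was below 1.

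The share of cells with a UMI followed depth, so it was also taken after thinning to 872 UMIs, a depth that 89 control and 70 4E-BP1–cKO cells did not reach. An Actg1 UMI was found in 65.5% (62.6 to 68.2) of control and 66.7% (62.2 to 71.1) of 4E-BP1–cKO cells before thinning, and in 34.6% (31.7 to 37.5) and 45.3% (40.2 to 50.5) after it. Arpc2 went from 51.1% and 56.4% to 19.5% (17.1 to 22.0) and 29.3% (24.8 to 34.2). For the other 8 genes the thinned intervals of the libraries overlapped. Aif1, for example, was in 41.1% and 44.7% of all cells and in 15.6% (13.5 to 17.9) and 18.7% (14.9 to 23.0) of thinned ones. Its mean was 1.18 and 1.11 UMIs per cell, so a cell without an Aif1 UMI is not shown to lack the gene. How much free RNA adds could not be read from a cell type without Aif1, since only 7 cells held 3 oligodendrocyte markers and 4 of them held an Aif1 UMI.

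The wider actin machinery differed little between the libraries as well. Of 104 other genes in 12 lists of actin functions, 90 had at least 20 UMIs. Their median log2 ratio was 0.090, beside -0.055 over the 11784 genes with as many UMIs. 56 of the 90 were above 0, against 43.9% of all genes. 2 were at least 1.5-fold higher (4.32% of all genes) and 2 at least 1.5-fold lower (11.3%). These shares are not matched for UMI count. Of the 90, 75 had at least 200 UMIs, and among all genes with that many 1.19% were higher and 3.21% lower. Counted together with the members Arpc1b and Arpc2, 8 of 9 ARP2/3 subunits were above 0. Their median of 0.14 was the value of Arpc1b, and they ranged from 0.33 for Arpc2 to -0.11 for Arpc5l. Outside the members, the highest was Actr3, at 0.23. The monomer-binding list, which also holds the members Tmsb4x and Pfn1, had a median of 0.088. It was led by Tmsb10, a relative of Tmsb4x, at 192 and 239 CPM (log2 ratio 0.31). In the list for bundling and crosslinking, Marcksl1, a membrane-bound actin crosslinker, was highest of the 75 genes with at least 200 UMIs, at 0.57 (159 and 236 CPM). Myo1e, a membrane-linked myosin, stood at 0.53 and Tagln2 (transgelin 2) at 0.48. Values below 0 were found for Fmnl2, a formin, at -0.38, Vcl (vinculin) at -0.36, Dstn (destrin), which severs filaments, at -0.30, and Wasf2, a WAVE subunit that activates ARP2/3, at -0.24. Srf was counted at 39 and 9 UMIs and its partner Mrtfa at 117 and 108 CPM (log2 ratio -0.12, interval of the ratio 0.774 to 1.09).

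2 groups of genes outside the actin machinery moved with the libraries and are given beside these values. Of the 18 early genes, 16 were above 0 and 5 at least 1.5-fold higher, with a median log2 ratio of 0.41. Of 11 heat shock genes, 6 were at least 1.5-fold lower, with a median of -0.62. The early gene share was higher in the 4E-BP1–cKO cells of each of the 9 clusters. Its part in the Actg1 difference was not tested, and handling of the libraries and genotype cannot be told apart.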

How the data were processed

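The 10 genes and all gene lists were chosen with earlier results of these data known. The authors aligned reads to mm10 with Cell Ranger count (8.0.1 in the file header) and deposited raw UMI counts per gene and called cell, without normalization, gene or doublet filters. No source used here gives the annotation release. Barcodes were kept with more than 300 genes and under 5% mitochondrial UMIs. The doublet removal of the methods (scDblFinder) was not repeated. Scrublet in scanpy 1.11.5 marked 4 control and 11 4E-BP1–cKO cells (10.5 and 1.6 expected), which stayed in and were removed as an alternative. The study, with the same gene and mitochondrial limits and its own doublet removal, was left with fewer cells of each genotype than were kept here. This alternative therefore does not stand in for that step.

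UMIs were summed over cells, and log2 ratios used CPM with a pseudocount of 1 CPM. Ratios have exact conditional Poisson intervals; no p-value was computed, since cells are not replicates. Bands were cut at 3, 8 and 15% ribosomal protein UMIs. Clusters came from SCTransform (0.4.2), RPCA, 20 principal components and a resolution of 1.4 in Seurat 5.3.0 under R 4.3.3. Python 3.11.15, numpy 2.4.6, scipy 1.17.1, pandas 2.3.3 and matplotlib 3.10.9 did the rest. Correlations between cells are Spearman correlations of shares of UMIs. Alternatives were other cell limits, a total that left out ribosomal protein and mitochondrial genes, TMM factors from edgeR 4.0.16, 10 CPM as pseudocount, thinning, cells of at least 2000 UMIs, quartiles in place of bands, a resolution of 0.8 and equal weight for cells, bands or clusters. Genes named from a list are its highest or lowest by log2 ratio among those with at least 200 UMIs, and like patterns are the 5 genes of highest rho; Srf, the actin share, the range of at least 3% and clusters 3 and 6 were chosen after values were seen. In counts simulated by Poisson draws for 4887 genes, 100% of 200 genes changed 1.5-fold between the libraries had the right direction. The simulated ratio lay within 95.4% of intervals. The intervals assume Poisson counts too, so the simulation checks the calculation and not the spread between cells or mice. Promoters and spans come from RefSeq GRCm38.p6; Pfn1 overlaps Eno3 (37 UMIs). All columns belonged to these 2 libraries. The values of 1 gene of the wider lists are not reported here.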

Additional observations from a re-analysis of the deposited data

How the results depend on the processing

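No paired analysis was possible because each genotype had 1 library, and leaving out a library leaves nothing to compare. The log2 ratio of the sum of the 10 genes between libraries (0.054) was 0.094 with TMM factors, 0.081 as a mean over cells, 0.18 after thinning, -0.14 with bands and -0.032 with clusters weighted equally. The median of the 10 (0.12) was -0.094 with bands weighted equally, where the small top band counts as much as the others. 1 gene (Actg1, at 0.59) passed 1.5-fold after thinning and 1 with clusters weighted equally, in place of 0. The latter was Pfn1, at -0.72, which had 0 UMIs in the 20 4E-BP1–cKO cells of cluster 8. Actg1 stayed between 0.16 and 0.59 and Arpc2 between 0.26 and 0.55 under all alternatives run, whereas Actb (-0.30 to 0.081), Tmsb4x (-0.17 to 0.15), Aif1 (-0.11 to 0.20), Cfl1, Pfn1 and Lcp1 took both signs. The median log2 ratio between bands was 1.95 with quartiles and 1.46 in the 4E-BP1–cKO library alone. The range of the sum over clusters (7.33-fold) was 6.86-fold without actin genes in the clustering, 5.25-fold at a resolution of 0.8 and 8.95-fold without ribosomal protein and mitochondrial UMIs. The median pair rho was 0.069 and 0.068 (control and 4E-BP1–cKO) when thinned, 0.054 and 0.097 in cells under 3%, and 0.15 in 4E-BP1–cKO cells of at least 3%. The rho of the sum with ribosomal share was 0.41 and 0.38 under 3%, and 0.66 and 0.57 at 3% and over. The causes of these shifts were not tested, apart from those given.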
